A study of Bos taurus with 16 samples.

Results

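The ciliated epithelium genes are 10 genes of motile cilia that were read from one-colour arrays of endometrium and circulating white blood cells (WBC) of dairy cows. They are FOXJ1, DNAI1, DNAI2, CCDC39, RSPH1, SPAG6, SPAG17, TEKT1, ROPN1L and TPPP3. They were taken as every probe that is no control and whose gene name in the scanner files equals one of these symbols, which gave 19 of the 46615 probes on the array and 10 of its 26650 genes or unnamed transcripts. Endometrial biopsies and PAXgene blood came from the same 8 multiparous Holstein-Friesian cows of 4 to 10 years, all sampled 45 to 55 days after calving. In 4 of them (718, 833, 836 and 846) histology and cytobrush smears showed subclinical endometritis (SCE), an inflammation of the uterine lining without outward signs, and the other 4 (841, 850, 877 and 883) were healthy. Each cow gave 1 array per tissue, so there were 16 arrays in 4 groups of 4. Cows with clinical disease of the uterus or udder were left out of the study. By the paper, the SCE cows on the arrays were mostly in the luteal phase of the estrous cycle. The healthy cows were split evenly between luteal and follicular phase. The paper also reports that cycle stage affected several endometrial genes in healthy cows. Cycle stage was not matched to single cows here, so SCE and stage cannot be fully told apart. A biopsy mixes epithelium, stroma, muscle and immune cells, so fewer ciliated cells and less RNA per ciliated cell cannot be told apart.

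Motile cilia project from part of the epithelial cells that line the oviduct and the uterine lumen, and their beat moves fluid over the surface. Their core, the axoneme, is a ring of microtubule doublets around a central pair. Dynein arms on the doublets pull neighbouring doublets past each other, radial spokes pass signals from the central pair to the arms, and the transcription factor FOXJ1 switches the axoneme genes on when a cell becomes ciliated. Blood leukocytes carry no motile cilia.

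Each gene was measured by 60-base probes, which set what could be seen. SPAG6 had 4 probes at 3 places of its transcript, TPPP3 had 4, FOXJ1, DNAI2 and SPAG17 had 2 each, and the other 5 genes had 1. Coordinates are those in the scanner files, whose header names the cattle build HGSC Btau_3.1, while the array's design notes name the later UMD3.1 for its transcripts. No annotation of either was used here, so exons and UTRs are not given. The probes below are a selection from SPAG6, RSPH1, SPAG17 and TPPP3, together with the FOXJ1 probe that was dim. The ROPN1L probe and the brightest probes of SPAG6 and TPPP3 are not among them. The first and second SPAG6 probes overlap over 57 bases, of which 56 are identical. The capital marks the base in which they differ, G4A, counted from the first base of the first probe.
SPAG6 A_73_P452196: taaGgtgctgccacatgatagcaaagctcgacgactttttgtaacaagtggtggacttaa
SPAG6 A_73_P499338: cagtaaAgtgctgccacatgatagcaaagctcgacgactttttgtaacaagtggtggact
SPAG6 A_73_P165362: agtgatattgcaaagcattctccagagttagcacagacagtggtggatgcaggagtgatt
RSPH1 A_73_117115: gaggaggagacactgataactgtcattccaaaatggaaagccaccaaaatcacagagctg
SPAG17 A_73_P155127: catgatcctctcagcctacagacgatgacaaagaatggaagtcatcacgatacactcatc
TPPP3 A_73_P252656: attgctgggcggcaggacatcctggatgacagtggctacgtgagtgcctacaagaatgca
FOXJ1 A_73_P066511: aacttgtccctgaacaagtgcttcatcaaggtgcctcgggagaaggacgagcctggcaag

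The first SPAG6 probe lies at chr13:22963279-22966319 and the second at chr13:22963276-22966316, both on the plus strand. Each covers 3041 bases of genome for 60 bases of probe, so its match is split. The third lies at chr13:22949222-22949281 and the brightest SPAG6 probe, A_73_104084, at chr13:22973673-22973732. RSPH1 was read at chr1:145683664-145683723 on the minus strand, and TPPP3 A_73_P252656 at chr18:34021051-34021110 on the minus strand. The brightest SPAG17 probe lies on an unplaced scaffold. FOXJ1 A_73_P066511 lies at chr19:57261970-57262029 and the brighter FOXJ1 probe, A_73_112607, at chr19:57262765-57262824. The brightest TPPP3 probes, A_73_P109846 and A_73_100385, share 52 bases and are no separate evidence. Where a gene had several probes, the one with the highest mean over the 16 arrays is called its main probe and is meant unless another is named.

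Values are log2 normalized intensities, in which a difference of 1 is a doubling, and levels are compared within a probe only. SCE and healthy cows, and the tissues, were compared with limma's TREAT test against a threshold of 1.2-fold, with Benjamini-Hochberg adjustment over all probes. A gene was called when 1 of its probes had an adjusted p of 0.05 or less. A spot is called well above background where the scanner software's own test set it apart from its surroundings, which held for 64.7% to 79.8% of the spots of an array. The endometrium array of SCE cow 833 stood apart, with a median signal of 79 above background where the other 7 endometrium arrays had 248 to 316. Most results that rest on that array are given with and without it. Slide 1 carried the WBC arrays and slide 2 those of endometrium, so a difference between tissues cannot be told apart from one between slides. The leukocyte markers had a median endometrium minus WBC difference of -5.31, and all 8 had a probe that passed as lower in endometrium. Of the 12 epithelial markers, 9 had a probe that passed as higher in endometrium and 4 a probe that passed as lower.

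In endometrium, the axoneme genes ROPN1L and SPAG6 were at least 7.57-fold and 6.91-fold higher than in WBC, where neither was well above background. RSPH1 and SPAG17 were at least 2.45-fold and 2.55-fold higher, and TPPP3, which was read in both tissues, was 1.79 log2 units higher. The main FOXJ1 probe did not pass as higher in the main scaling. Of the 10 genes, 5 were called higher in endometrium and none lower, where 27.1% of all genes tested were called higher and 37.4% lower. Of all calls 42% were thus higher, a share that became 77.5% with each tissue normalized on its own, when all 10 genes were called higher. The median difference of the 10 main probes was 0.97, against -0.16 over all probes. Without cow 833 it was 1.08, and the same 5 genes were still among those called higher.

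SPAG6, a protein of the central apparatus, was well above background on all 8 endometrium arrays and on no WBC array. Healthy cows 841, 850, 877 and 883 had endometrial levels of 8.02, 8.81, 7 and 9.45, and SCE cows 718, 833, 836 and 846 had 8.79, 6.69, 9.83 and 9.71. In WBC every array lay between 5.17 and 5.64, so the tissues did not overlap. The measured difference was 3.13 ± 0.41 (SE, n = 8 cows; limma, adjusted p = 9.89e-06), and the level was higher in endometrium in 8 of 8 cows. Because WBC gave no signal well above background, the fold of the means is a bound, without sampling error. Set, array by array, against the lowest signal among WBC probes well above background or its own signal where that was higher, SPAG6 was at least 6.91-fold higher in endometrium. Its other 3 probes likewise lacked such signal in WBC. In the order printed, they were at least 3.33-fold, 2.98-fold and 1.71-fold higher in endometrium, and all passed (limma, adjusted p = 0.000385, 0.000296 and 0.00144).

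ROPN1L, a protein of radial spokes and of the sperm tail, had a like profile. It was well above background on all 8 endometrium arrays and on none of WBC. Endometrium of the same healthy cows gave 7.62, 8.86, 7.01 and 9.89, and that of the SCE cows 9.07, 7.32, 9.78 and 10.97. WBC arrays lay between 5.34 and 6.04, clear of every endometrium array. The difference was 3.09 ± 0.45 (SE, n = 8 cows; limma, adjusted p = 3.49e-05), and the bound was at least 7.57-fold.

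RSPH1, a radial spoke head protein, was well above background on 6 of 8 endometrium arrays and on no WBC array. Healthy cows 841, 850, 877 and 883 had endometrial levels of 6.45, 7.08, 6.15 and 7.59, SCE cows 718, 833, 836 and 846 had 7.2, 6.49, 7.72 and 8.57, and WBC reached 6.05 at most. The tissues did not overlap, and the endometrium arrays not well above background were those of healthy cow 877 and SCE cow 833. The difference was 1.38 ± 0.25 (SE, n = 8 cows; limma, adjusted p = 0.000732), or at least 2.45-fold. SPAG17, which bridges parts of the central apparatus, gave 6.68, 7.19, 6.18 and 7.79 in endometrium of the same healthy cows and 7.20, 6.69, 8.13 and 8.55 in that of the SCE cows. These were again well above background in all cows but 877 and 833, and WBC in no cow. The highest WBC array, at 6.42, lay above the endometrium of cow 877. Its difference was 1.41 ± 0.26 (SE, n = 8 cows; limma, adjusted p = 0.000726), or at least 2.55-fold. The second SPAG17 probe, A_73_P167312, was well above background on 2 of 16 arrays and differed by 0.52, with an adjusted p of 0.157.

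TPPP3, a protein that promotes the polymerization of tubulin, was well above background on all 16 arrays with 3 of its 4 probes. WBC of healthy cows 841, 850, 877 and 883 read 11.36, 12.63, 13.3 and 13.27, and WBC of SCE cows 718, 833, 836 and 846 read 13.05, 12.78, 12.21 and 12.56. Endometrium read 14.11, 13.2, 14.97 and 15.1 for the healthy cows and 14.45, 12.97, 14.53 and 16.12 for the SCE cows. Unlike SPAG6 and ROPN1L, TPPP3 was thus read in blood as well, and the tissues overlapped. The difference was 1.79 ± 0.41 (SE, n = 8 cows; limma, adjusted p = 0.00283), with 8 of 8 cows higher in endometrium. Probe A_73_P252656, which shares no bases with the main probe, gave 1.28 (limma, adjusted p = 0.021). The fourth TPPP3 probe stands on an expressed sequence tag and was well above background on 1 of 16 arrays, so it says nothing of the gene's level.

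FOXJ1, the master regulator, was well above background on all 16 arrays with its main probe, and WBC read higher than endometrium in 7 of 8 cows. WBC of healthy cows 841, 850, 877 and 883 read 7.99, 7.48, 7.45 and 7.61, and WBC of SCE cows 718, 833, 836 and 846 read 7.83, 7.16, 7.62 and 7.76. Endometrium of the same cows gave 7.06, 7.15, 6.96 and 7.1, and 6.84, 7.79, 7 and 7.29. Only cow 833 was higher in endometrium. The difference of -0.46 ± 0.14 (SE, n = 8 cows) did not pass (limma, adjusted p = 0.15), and its direction rested on the scaling. With each tissue normalized on its own it was 0.31 and passed as higher in endometrium, where the median of all probes moved from -0.16 to 0.35. Relative to that median FOXJ1 stood at -0.31 in one scaling and -0.04 in the other. Without cow 833 the difference was -0.63 and passed as lower in endometrium (limma, adjusted p = 0.00406), as it also did with the processed signal of the scanner output, set to a common 75th percentile per array (-0.74), and with TREAT thresholds of 0 or 1.1-fold. The other FOXJ1 probe, printed above, was well above background on 3 of 8 endometrium arrays and on no WBC array, with a difference of 0.17 (limma, adjusted p = 0.884). Taken as the mean of its probes, FOXJ1 differed by -0.15, equal to the median then found over all probes, and did not pass.

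The remaining 4 genes were dim in both tissues. DNAI1, an intermediate chain of the outer dynein arm, was well above background on 6 endometrium arrays and no WBC array. It differed by 0.41 ± 0.13 (SE, n = 8 cows; limma, adjusted p = 0.234), which did not pass. TEKT1, a filament protein inside the doublet microtubules, differed by 0.56 ± 0.16 (SE; adjusted p = 0.0749) and CCDC39, the ruler that sets the spacing of dynein arms, by 0.18 ± 0.19 (SE; adjusted p = 0.855). DNAI2, the partner of DNAI1, was not well above background on any of the 16 arrays with either probe. Its probes differed between tissues by 0.42 and -0.06 in signal that was not well above background, so no fold or direction is given.

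**Figure D1:**
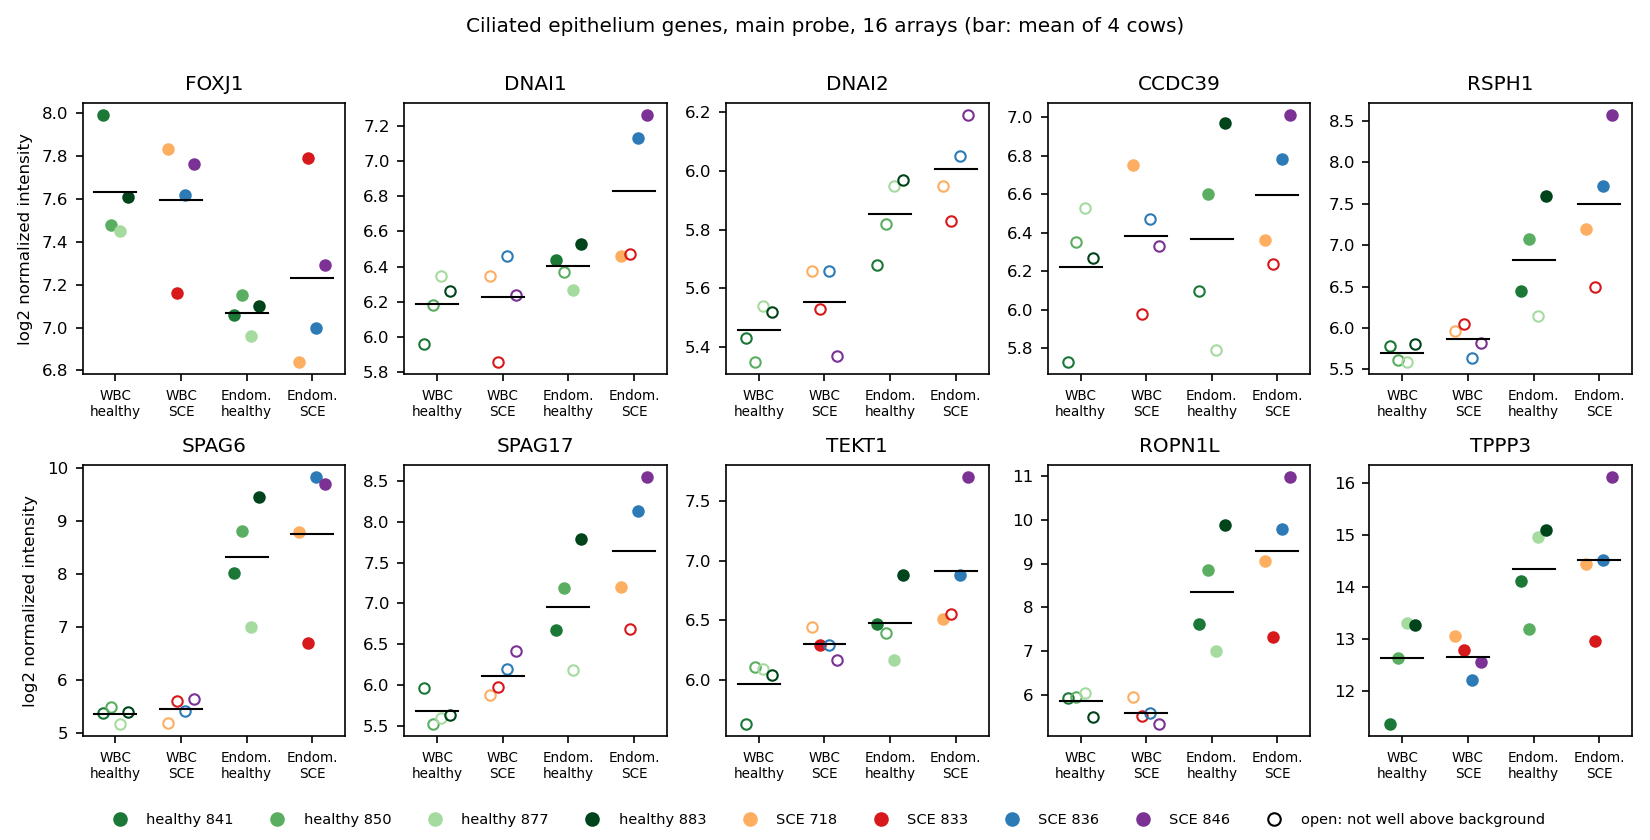
Log2 normalized intensity (vertical axes, scaled per gene) of the main probe of each gene on the 16 arrays, by group; points are cows, open points were not well above background, and bars are means of 4 cows. SPAG6 and ROPN1L lie between 5.17 and 6.04 on every WBC array and between 6.69 and 10.97 on every endometrium array, and FOXJ1 is higher in WBC in all cows but 833.

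**Figure D2:**
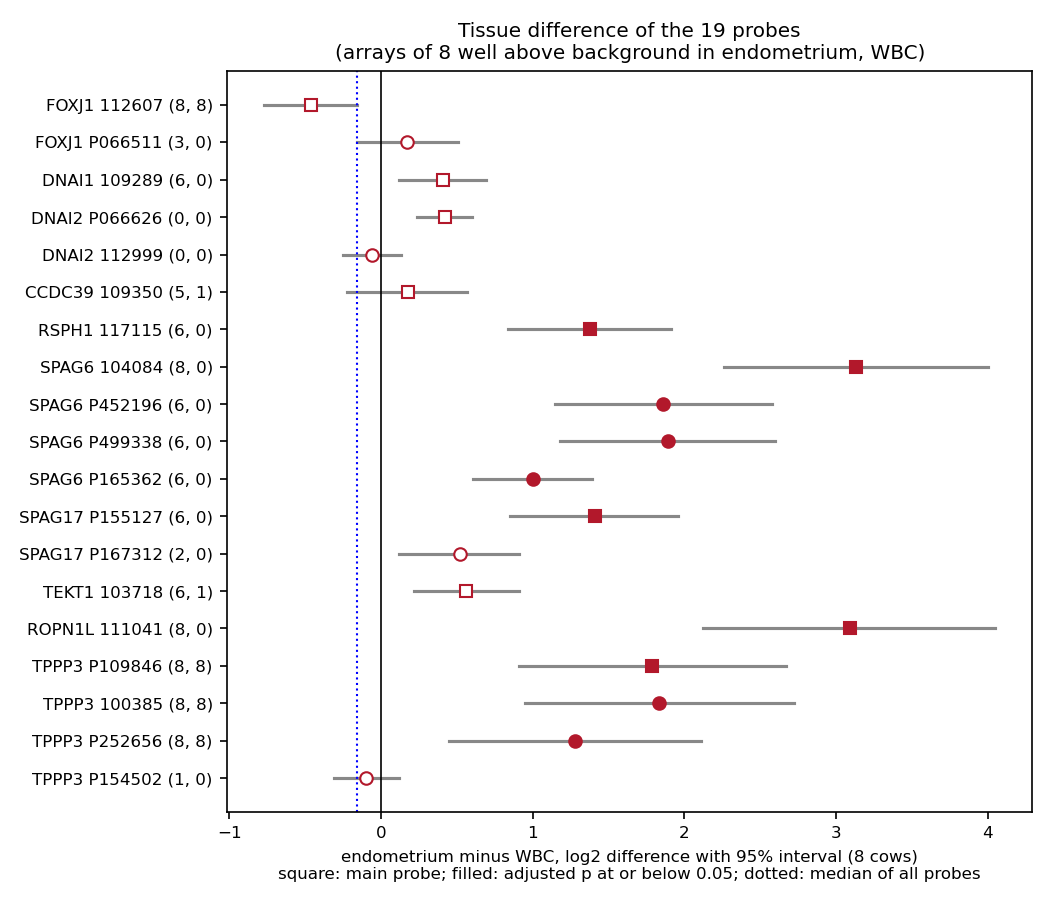
Endometrium minus WBC log2 difference (horizontal axis) of the 19 probes with 95% intervals; in brackets, the endometrium and WBC arrays of 8 on which the probe was well above background, and filled points have an adjusted p of 0.05 or less. SPAG6 at 3.13 and ROPN1L at 3.09 lie to the right of 3, as measured differences against WBC signal not well above background, and the FOXJ1 main probe at -0.46 lies left of 0.

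Within the endometrium, levels of all 10 genes but DNAI2 varied more between cows than those of most probes, and 5 of them varied most. The SD over the 8 endometrium arrays was 1.4 for ROPN1L, 1.2 for SPAG6, 1.03 for TPPP3 and 0.8 for both RSPH1 and SPAG17, where the median over all probes was 0.29. At least 92.8% of all probes varied less than these 5. The SD was 0.47 for TEKT1, 0.43 for CCDC39, 0.37 for DNAI1, 0.29 for FOXJ1 and 0.15 for DNAI2. In that order, 77.1%, 73.3%, 64.7%, 51.4% and 15.2% of all probes varied less. Cow 846 had the highest level of 8 of the 10 genes and one of the 2 highest of all 10. Both counts include DNAI2, whose signal was not well above background. Healthy cow 877 had the lowest level of 6 genes and one of the 2 lowest of 8. SCE cow 833 was lowest for SPAG6 and TPPP3 and highest for FOXJ1. The low and the high end thus each held SCE cows, and healthy cow 883 stood among the 2 highest for 3 genes.

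The axoneme genes kept nearly the same order of cows. Correlations over the 8 endometrium arrays were taken for the 8 genes read well above background on at least 6 of them, which makes 28 pairs. Among DNAI1, ROPN1L, RSPH1, SPAG17, SPAG6 and TEKT1, the 15 pairs had Pearson's r of 0.67 to 0.99 and Spearman's rho of 0.67 to 1. For RSPH1 and SPAG17, r was 0.98 and rho 1 (exact permutation test, p = 2.48e-05 for r and 4.96e-05 for rho, adjusted over the 28 pairs to 0.000347 and 0.000694). For SPAG6 and ROPN1L, r was 0.94 and rho 0.88 (exact permutation test, p = 0.000843 and 0.00724, adjusted 0.00367 and 0.0184). Of the 15 pairs, 13 had an adjusted p of 0.05 or less, by r and by rho. The exceptions were SPAG6 with DNAI1 (r = 0.69, rho = 0.67; exact permutation test, p = 0.0471 and 0.0831, adjusted 0.0942 and 0.155) and SPAG6 with TEKT1 (r = 0.67, rho = 0.67; exact permutation test, p = 0.0554 and 0.0831, adjusted 0.103 and 0.155). Leaving out the 2 cows farthest from the median of the first gene of a pair, r was 0.45 to 0.98, and without cow 833 it was 0.76 to 0.99. With each group centred on its own mean, a check chosen after the values were seen, it was 0.67 to 0.99. A row of the slide held only 4 arrays, too few for a value within rows.

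TPPP3 had r of 0.51 to 0.66 and rho of 0.45 to 0.62 against the 6 axoneme genes, none with an adjusted p of 0.05 or less (exact permutation tests, lowest adjusted p for r 0.137). Its r was 0.24 to 0.72 without cow 833 and -0.06 to 0.72 without the 2 farthest cows. FOXJ1 did not follow the 6 axoneme genes, with r of -0.41 to 0.19 and rho of -0.02 to 0.36 (exact permutation tests, lowest adjusted p for r 0.407). That rested on cow 833, which was low for SPAG6 and high for FOXJ1. Without it, r of FOXJ1 with the same genes was 0.40 to 0.68. The probes of a gene behaved alike where they were bright. The 4 SPAG6 probes, including the pair that differ by 1 base, had r of 0.96 to 1 in endometrium, and the 3 bright TPPP3 probes 0.97 to 1 there and 0.96 to 0.99 in WBC. The FOXJ1 probes had r of 0.63 in endometrium and the SPAG17 probes 0.56.

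**Figure D3:**
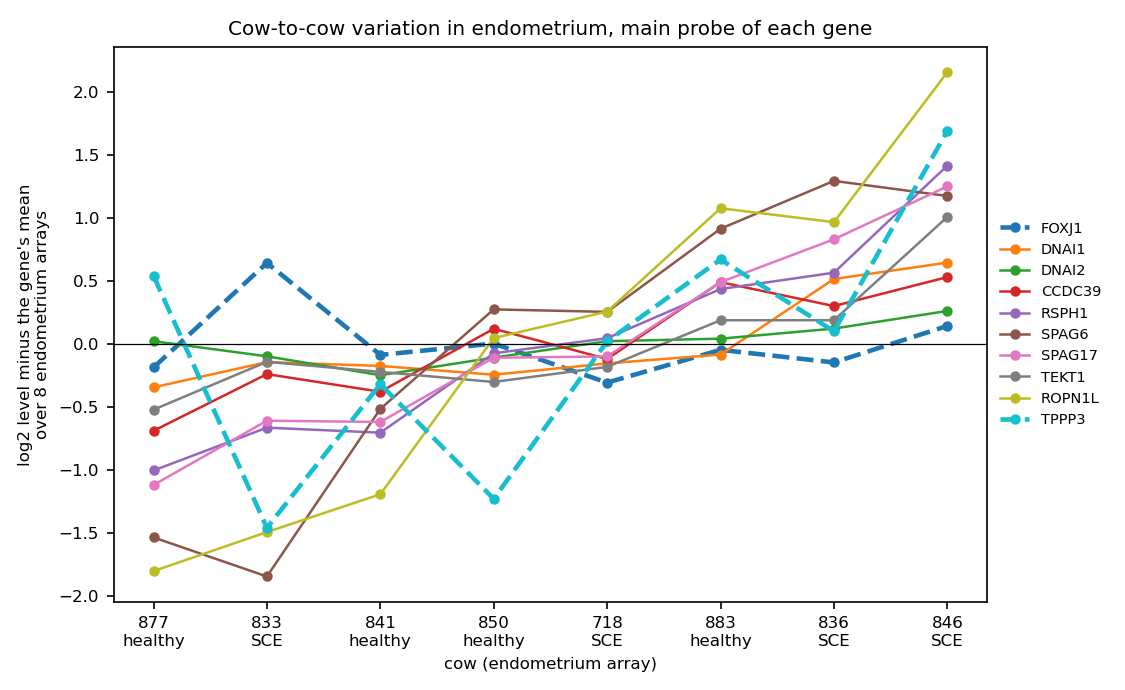
Level of each main probe in endometrium minus the gene's mean over the 8 arrays (log2, vertical axis), with cows ordered from the lowest to the highest mean of the 10 genes; FOXJ1 and TPPP3 are dashed. Cow 877 is lowest for 6 genes and cow 846 highest for 8. In cow 833 SPAG6 is at its lowest and FOXJ1 at its highest.

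Genes were ranked by how closely their main probe tracked FOXJ1 over the 8 endometrium arrays, among 16588 genes well above background on all 8. The 10 closest had r of 0.960 to 0.979 and held none of the other cilium genes described below. They were CDR2L, CLEC16A, ARL1, PTPRM, TRIM54, RNF215, UBE2M, LRRC61 and 2 transcripts without a gene name. Without cow 833 their r was 0.788 to 0.921. The 45 other cilium genes in this ranking had a median r of -0.03 with FOXJ1, and 0.50 without cow 833. The same ranking was made for SPAG6 after its values had been seen. Its 10 closest, with r of 0.970 to 0.983 (0.957 to 0.99 without cow 833), held 3 of those cilium genes, CAPS, DYDC2 and CCDC65. Of the genes ranked, 0.271% were cilium genes. The 10 closest also held DYNLRB2, a dynein light chain, and HOATZ. ROPN1L stood at position 32. The 45 cilium genes had a median r of 0.79 with SPAG6 (0.84 without cow 833), against -0.06 over all genes with all 8 cows. These are descriptions over arrays that share a slide, and cow 833's array differed from the others in signal.

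In endometrium, all 10 main probes had a higher mean in SCE than in healthy cows, but none passed. The call count was 0 of 10 genes and 0% of all genes tested, and without adjustment it was 0 of 10 genes where 0.634% of genes passed TREAT. ROPN1L showed the widest gap, with 9.28 ± 1.53 in SCE and 8.35 ± 1.28 in healthy cows (SD, n = 4 each), a difference of 0.94 with a 95% interval of -1.01 to 2.89 (TREAT p = 0.322; two-sided exact permutation test, p = 0.40). RSPH1 differed by 0.68 (interval -0.40 to 1.76; exact permutation p = 0.229) and SPAG17 by 0.68 (-0.41 to 1.77; exact permutation p = 0.229). DNAI1 at 0.43, TEKT1 at 0.43 and SPAG6 at 0.44 came next, with exact permutation p of 0.114, 0.143 and 0.657. CCDC39 differed by 0.24, TPPP3 by 0.17, FOXJ1 by 0.16 and DNAI2 by 0.15. Adjusted p from limma was 1 for all 19 probes, and with 4 cows against 4, no exact p can be below 0.0286. The groups overlapped for all 19 probes, where 1.63% of all probes did not overlap. The second SPAG17 probe went the other way, at -0.11.

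The median of the 10 differences, with the dim DNAI2 included, was 0.43, against 0 over all probes. Since the genes moved together from cow to cow, the 10 directions are not independent observations. That median was 0.16 without SCE cow 846, 0.28 without SCE cow 836 and 0.62 without SCE cow 833. With the processed signal it was 0.83 (0.04 over all probes), when DNAI2 stood at 0.9 and CCDC39 at 0.84. Nor did the rows of the slide give the same values. Row 1 held healthy cows 841 and 850 and SCE cows 718 and 833, and there the differences ran from -0.68 for SPAG6 to 0.22 for FOXJ1, with ROPN1L at -0.05, SPAG17 at 0 and RSPH1 at 0.08. Row 2 held healthy cows 877 and 883 and SCE cows 836 and 846, and there they ran from 0.11 for FOXJ1 to 1.93 for ROPN1L, with SPAG6 at 1.55, SPAG17 at 1.36 and RSPH1 at 1.28. Single cows also set the size. ROPN1L was 1.59 without SCE cow 833 and 0.38 without SCE cow 846, and SPAG6 was 1.12 without cow 833 and 0.00 without healthy cow 877. TPPP3 turned to -0.36 without cow 846 and -0.21 without healthy cow 850, and FOXJ1 to -0.02 without cow 833.

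**Figure D4:**
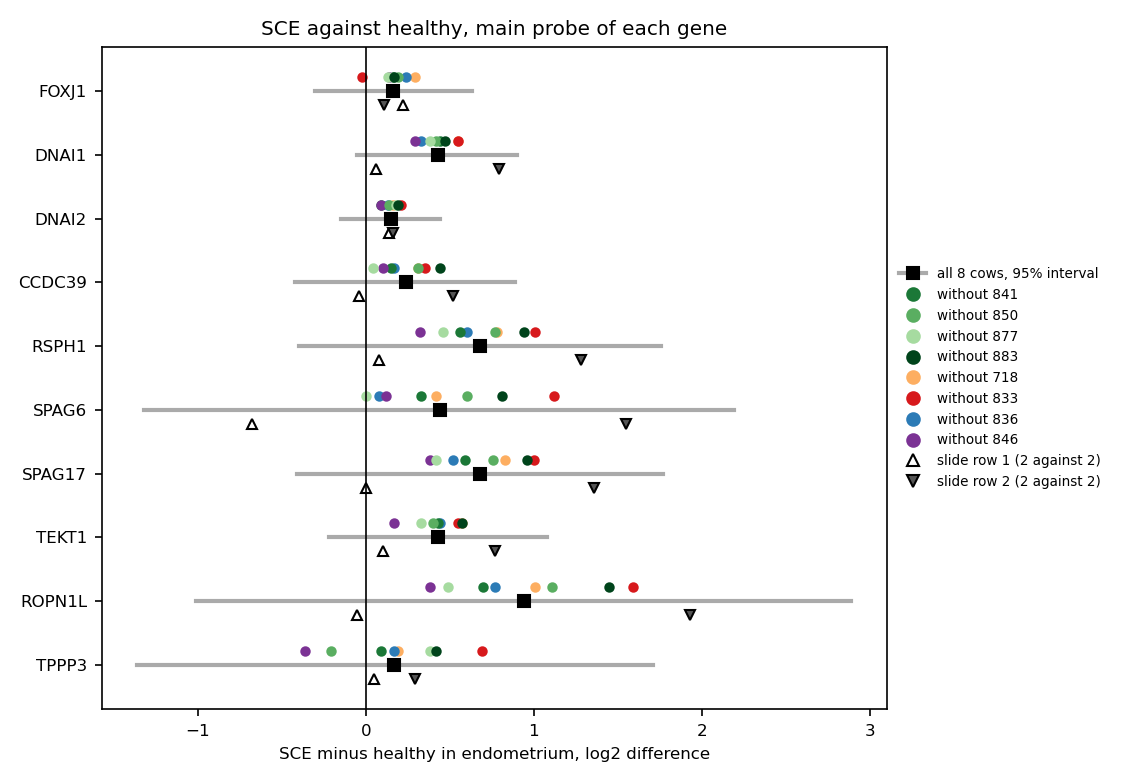
SCE minus healthy log2 difference in endometrium (horizontal axis) of each main probe over all 8 cows with its 95% interval (squares), without each cow in turn (circles) and within each row of the slide (triangles). All intervals include 0, and for ROPN1L row 1 gave -0.05 and row 2 gave 1.93.

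In WBC, the comparison of SCE with healthy cows had little signal to rest on. Of the 10 main probes, FOXJ1 and TPPP3 were well above background on all 8 WBC arrays, CCDC39 and TEKT1 on 1 each, and the other 6 on none. No gene was called, 0 of 10 and 0% of all genes, and without adjustment 0 of 10 where 0.176% of genes passed. FOXJ1 read 7.59 ± 0.30 in SCE and 7.63 ± 0.25 in healthy cows (SD, n = 4 each), a difference of -0.04 with an interval of -0.45 to 0.38. TPPP3 read 12.65 ± 0.35 and 12.64 ± 0.91, a difference of 0.01 with an interval of -0.88 to 0.89. TEKT1 was the 1 probe of 19 whose groups did not overlap, where 1.3% of all probes did not overlap. SCE cows 718, 833, 836 and 846 gave 6.44, 6.29, 6.29 and 6.17, and healthy cows 841, 850, 877 and 883 gave 5.63, 6.11, 6.09 and 6.04 (TREAT p = 0.327; two-sided exact permutation test, p = 0.0286, the smallest possible). SPAG17 differed by 0.44 (interval 0.07 to 0.80; exact permutation p = 0.0571). By row of the slide, TEKT1 differed by 0.5 in row 1 and 0.16 in row 2, and SPAG17 by 0.18 and 0.69. Neither was well above background in any healthy cow, so no fold is given.

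The SCE difference itself was compared between the tissues. No gene was called, 0 of 10 and 0% of all genes, and without adjustment 0 of 10 where 0.698% of genes passed. The difference was 1.2 larger in endometrium for ROPN1L (95% interval -0.74 to 3.13; exact permutation p = 0.286) and 0.20 larger for FOXJ1 (-0.40 to 0.81; exact permutation p = 0.80).

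The other genes of motile cilia were read from a list of 120, grouped by role, of which 92 had a probe. In endometrium against WBC, 48 of the 92 had a probe called higher and 13 a probe called lower, against the 27.1% and 37.4% of all genes given above, and the median difference of their main probes was 0.55. Differences between roles were not tested. By main probe, 8 of 11 radial spoke genes were higher and 2 were lower (median 1.08). Of the tektin and microtubule inner protein genes 6 of 14 were higher, and of the other ciliated cell genes 17 of 27. None of the 7 inner dynein arm genes and none of the 5 transcription genes was called higher, and 2 of each were lower. The transcription genes that were lower were MYB at -1.56 and TP73 at -0.84, both well above background on all 8 WBC arrays.

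Among the genes of the 92 with the widest measured tissue differences were DRC1 (listed as CCDC164), a part of the nexin-dynein regulatory complex, at 3.77, and LRRC23, a radial spoke protein, at 3.36. CAPSL and CCDC113 were well above background on no WBC array with any probe, and their main probes were at least 11-fold and 9.13-fold higher in endometrium. All 4 passed (limma, highest adjusted p 2.12e-06). In the SCE comparison CAPSL, DRC1, CCDC113 and LRRC23 had endometrial differences of 1.02, 0.57, 0.92 and 1.13, none of which passed (exact permutation p = 0.286, 0.543, 0.314 and 0.143).

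In SCE against healthy endometrium, 0 of the 92 genes were called by limma and 1 passed without adjustment, where 0.634% of all genes did. That was CCDC146, a centriole and cilium protein, with 8.06 ± 0.56 in SCE and 7.19 ± 0.37 in healthy cows (SD, n = 4 each; TREAT p = 0.0392, adjusted p = 1; two-sided exact permutation test, p = 0.0857). The main probes of 81 of the 92 were higher in SCE, with a median of 0.32, where 49.1% of all probes were higher. That median was 0.15 without cow 846 (67 higher), 0.2 without cow 877 (73 higher) and 0.56 without cow 833 (86 higher). The 45 cilium genes ranked above had a median r of 0.79 with SPAG6, so the 81 directions are not independent observations. The count without adjustment was 7 without cow 833 (0.773% of all genes), 6 without cow 883 (1.31%), 2 without cow 718 (0.826%), and 0 without cow 836, 841, 846 or 877 (0.458% to 2.35%). In WBC the median was -0.02 and no gene passed, with or without adjustment. The 20 genes of intraflagellar transport, the machinery that builds motile and non-motile cilia alike, were all well above background on all 8 endometrium arrays. Their endometrial SCE median was -0.05, with 7 of 20 higher in SCE, while 16 had a probe called higher and 2 a probe called lower in endometrium than in WBC, beside the 27.1% and 37.4% of all genes.

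Markers of other cell types had medians off 0 between SCE and healthy endometrium as well. No gene was called by limma and none passed without adjustment. The median SCE minus healthy difference was 0.29 for epithelial markers, with 10 of 12 higher in SCE, and 0.26 for leukocyte markers (7 of 8). It was -0.39 for stromal markers (0 of 7) and -0.33 for smooth muscle markers (1 of 5), beside the 0.32 of the other cilium genes. Single cows set these medians too. Without SCE cow 718 the median was 0.05 for leukocyte and -0.04 for smooth muscle markers. Without SCE cow 833 it was -0.08 for stromal markers, and without SCE cow 836 0.09 for epithelial markers. Leaving out other cows made some larger, as -0.67 for stromal markers without SCE cow 846. The mean level of the 10 main probes in endometrium ran from 7.25 in healthy cow 877 and 7.30 in SCE cow 833 to 8.94 in SCE cow 846, and that of the other cilium genes from 7.30 in cow 877 to 8.69 in cow 846. The 12 epithelial markers, all well above background on every endometrium array, ran from 9.93 to 11.52 in healthy and from 10.58 to 11.62 in SCE cows. They were lowest in cow 877, as the cilium genes were, but cow 846 was at 10.58. This level is a mean of main probes, not all of which passed as higher in endometrium than in WBC. Those of KRT8 (-1.69), KRT19 (-1.3) and CLDN4 (-1.4) passed as lower, and those of CLDN7, ELF3 and PAX8 passed in neither direction. Cow 846 was highest for the stromal markers, at 13.97, and for the intraflagellar transport genes, at 10.89. The 8 leukocyte markers ran from 10.09 to 10.42 in healthy and from 10.26 to 11.16 in SCE cows, the 7 stromal markers from 13.35 to 13.89 and from 12.46 to 13.97, and the 5 smooth muscle markers from 12.72 to 14.62 and from 13.16 to 14.56. The hormone receptors ESR1, PGR and OXTR, which vary over the estrous cycle, had mean levels of 10.24, 10.07, 8.46 and 7.77 in healthy cows 841, 850, 877 and 883. SCE cows 718, 833, 836 and 846 had 9.45, 8.69, 7.91 and 8.77. OXTR varied most, with an SD of 2.36 in healthy and 1.8 in SCE cows. The ESR1 main probe did not pass between tissues (difference 0.29, limma adjusted p = 0.633). No cycle stage is read from these means. The part of these lists in the cilium values was not tested.

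**Figure D5:**
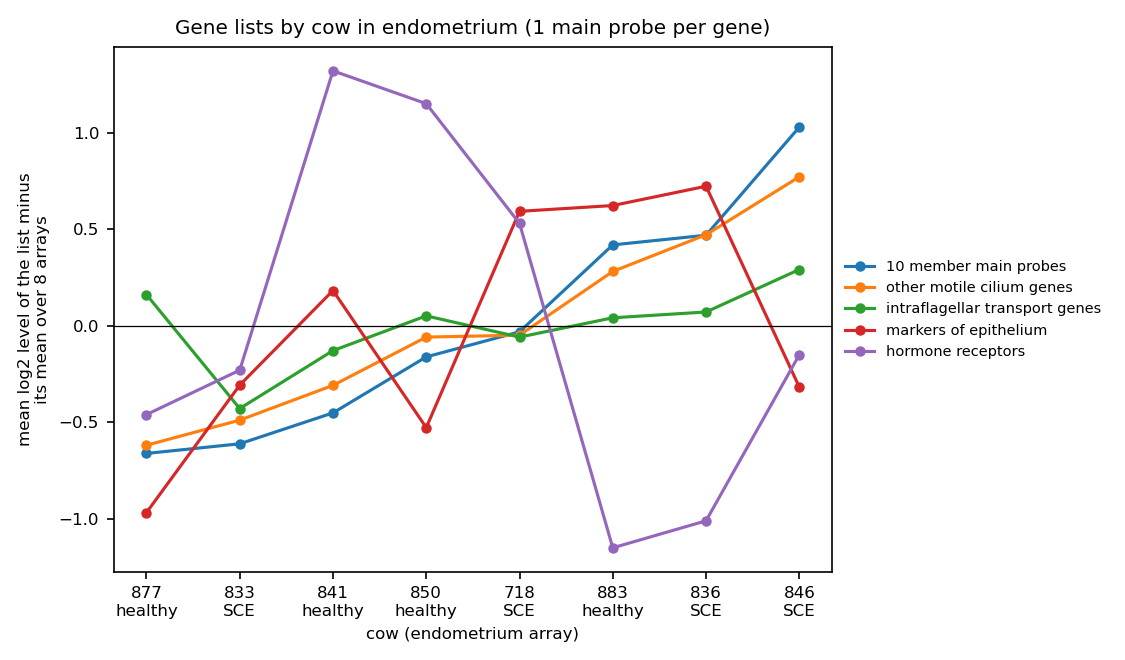
Mean log2 level of each gene list in endometrium minus its mean over the 8 arrays (vertical axis), by cow in the same order as before. The 10 genes and the other cilium genes rise together to cow 846. Intraflagellar transport genes stay within 10.17 to 10.89 as mean levels and are also highest in cow 846. Epithelial markers and hormone receptors do not peak there.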

How the data were processed

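Endometrium and WBC of 8 cows were measured on 16 one-colour arrays. Spot intensities were read by the authors with Agilent's Feature Extraction software (release 10.10.1.1) and deposited as scanner output, beside the authors' own quantile-normalized values. From them, median signals without background correction were taken, control spots (1319) and outlier spots (190 to 465 per array) left out, log2 values quantile-normalized over 16 arrays and spots of a probe averaged. Uncorrected background narrows the fold of dim probes. Probes were named from the files and, for other genes, from RefSeq accessions (26517 of 46615 probes). Tests used limma 3.58.1 in R 4.3.3 (data.table, version 1.17.8; plots, matplotlib 3.10.9 in Python 3.11.15) and were tested on simulated data. The 2 arrays of a cow are paired by animal, but the main limma fit between tissues, with its SE and p values, did not use the pairing. The cow was a block in an alternative only. Deviations from group means correlated between a cow's tissues from -0.33 to 0.14. The members and gene lists were chosen with earlier results of these data known. Text genes were all members, cilium genes passing unadjusted TREAT within a tissue, the 5 others with the widest tissue difference (1 of which is not reported here), and the 10 closest to FOXJ1. Replicates are separate cows, and their number limits the precision. Alternatives were other normalizations, background corrections, filters, thresholds, blocks and leaving out each cow.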

Additional observations from a re-analysis of the deposited data

Results flagged for a closer look

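Of 136 groups of 4 arrays examined, 3 had an array far from the others, and chance gives about 1 in 20 such groups. TEKT1 read 5.63 in WBC of healthy cow 841, where the nearest cow read 6.04. Stromal markers averaged 13.89 in endometrium of healthy cow 877 (nearest 13.43), and leukocyte markers 11.16 in endometrium of SCE cow 718 (nearest 10.39).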

How the results depend on the processing

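None of the 10 genes was called by limma for SCE against healthy in endometrium, in WBC or for the difference between tissues under any alternative tried. The tissue count of 5 became 10 with each tissue normalized on its own, 8 with the processed signal, 9 and 8 with TREAT thresholds of 0 and 1.1-fold, and 3 among the 4 genes left by the filter on dim probes. It was 5 to 8 with each cow left out. With the cow as a replicate block it stayed at 5 (the same 5 genes), and the tissue difference of SCE at 0, and the block changed no other call. Of all genes called between tissues, 42% were higher in endometrium, against 77.5% with each tissue normalized on its own, when FOXJ1 turned to 0.31. Endometrial SCE differences reversed without cow 833 (FOXJ1, -0.02), 877 (SPAG6, 0), 846 and 850 (TPPP3, -0.36 and -0.21); leaving out other cows gave up to 0.29 for FOXJ1 (without 718), 1.12 for SPAG6 and 0.69 for TPPP3 (without 833). WBC differences near 0 also reversed. DNAI1 gave -0.01 with the processed signal and 0, -0.04 and -0.03 without cows 718, 836 and 841, and up to 0.16 without 833. FOXJ1 gave 0.01 with normexp, 0.09 as the mean of probes, and 0.1 and 0.08 without cows 833 and 841. SPAG6 gave -0.04 with the processed signal and -0.09 as the mean of probes. TPPP3 gave -0.04 with the processed signal and -0.12, -0.04 and -0.42 without cows 718, 833 and 841, and up to 0.23 without 877. The cause was not tested. Signal over background limits DNAI1, DNAI2, CCDC39 and TEKT1 in both tissues and all axoneme genes in WBC.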
